A study of Mus musculus with 23 samples.

Results

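The subunits of the proteasome were followed in mouse brain RNA measured on Illumina bead arrays, with particular attention to Psmd12, a subunit of the lid. Members were all probes whose array annotation carries a gene symbol made of Psma, Psmb, Psmc or Psmd and a number, which gave 54 of 25697 probes and 36 genes. Of these genes, 22 had 1 probe, 10 had 2 and 4 had 3. Psmd12 was singled out from its values in the E12.5 genotypes of these same arrays, so its genotype differences at E12.5 are given as a description, with no test. Its litter, sex and stage differences use all or some of the same E12.5 arrays and are likewise given without a test. The other members were chosen by symbol alone. Of the 54 probes, 44 (31 genes) had signal above the negative controls on enough embryonic arrays to be tested, and 46 (33 genes) on enough adult arrays. The array annotation gave this kind of symbol to no probe for Psma8, Psmb11 or Psmd3, which were not analysed here.

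The study compared mice that differ in Meis1, which encodes a homeobox protein and has been linked to restless legs syndrome, and each of the 23 arrays holds the RNA of 1 mouse. All mice were on the C57BL/6J background. At E12.5, in mid-gestation, the labels give forebrain from 5 homozygotes, 6 heterozygotes and 5 wild types, with 9 males and 7 females in all, and at 23 weeks they give brain from 4 heterozygous and 3 wild-type males. For the adults alone the labels write Meis1 beside the genotype, and no source used here gives what was changed in it. The title speaks of ganglionic eminences, whereas the labels say forebrain and brain. The first part of each embryo's mouse number (509, 542, 549 or 551) is taken here as its litter, a reading that the labels do not spell out, and litter 549 holds 0 wild types.

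Meis1 itself followed the genotype labels at E12.5. Its normalized log2 intensity was 8.41 to 8.93 in homozygotes and 9.40 to 9.79 in heterozygotes, against 9.73 to 10.15 in wild types. In adults it was 7.03 to 7.77 in heterozygotes and 7.84 to 8.47 in wild types. The labelled tissues also showed their markers: the 7 progenitor genes summed to 10390 to 14420 linear units on the embryonic arrays. On the males of both stages scaled together, the 6 adult brain genes summed to 22990 to 27190 in adult brain and to 304 to 447 in E12.5 forebrain. Pax6 and Snap25 were the defining markers not detected on any array. Median raw signal per array was 119 to 143 in adults and 164 to 210 at E12.5, with 52.3% to 55.1% of probes detected per array, and the number of arrays limits the precision.

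The proteasome is the barrel-shaped protease that degrades proteins tagged with ubiquitin. Its core particle is built from alpha rings that gate entry (Psma genes) and beta rings (Psmb genes), of which Psmb5, Psmb6 and Psmb7 carry the chymotrypsin-like, caspase-like and trypsin-like active sites. In cells exposed to interferon these can be replaced by Psmb8, Psmb9 and Psmb10 to form the immunoproteasome, which favours peptides for antigen presentation. The regulatory particle has a base with a ring of ATPases that unfolds substrates (Psmc genes) and scaffold subunits (such as Psmd1 and Psmd2), and a lid (such as Psmd11, Psmd12 and Psmd14) that contacts and removes ubiquitin chains. Subunit genes are often raised together by the transcription factor Nfe2l1 when proteasome capacity is short, and human carriers of PSMD12 loss-of-function variants have a neurodevelopmental syndrome. In bulk tissue, fewer cells of a type and less RNA per cell cannot be told apart.

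Upstream sequences of 3 genes are shown because their genes bracket the results below: Psmd12, whose probes disagreed, Psma7, which had among the largest decreases with stage, and Psmb10, which moved the opposite way. Each is the 250 bases before the annotated start from RefSeq's GRCm38.p6 annotation, written 5′ to 3′ along the gene, at chr11:107479278-107479527 on the plus strand for Psmd12, chr2:180042465-180042714 on the minus strand for Psma7 and chr8:105938393-105938642 on the minus strand for Psmb10. Capitals mark a match to a motif on either strand.
Psmd12: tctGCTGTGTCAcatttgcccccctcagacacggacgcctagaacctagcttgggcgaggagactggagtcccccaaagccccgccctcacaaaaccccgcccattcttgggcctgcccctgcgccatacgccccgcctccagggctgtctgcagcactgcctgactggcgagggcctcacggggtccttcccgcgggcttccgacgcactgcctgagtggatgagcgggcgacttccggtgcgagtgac
Psma7: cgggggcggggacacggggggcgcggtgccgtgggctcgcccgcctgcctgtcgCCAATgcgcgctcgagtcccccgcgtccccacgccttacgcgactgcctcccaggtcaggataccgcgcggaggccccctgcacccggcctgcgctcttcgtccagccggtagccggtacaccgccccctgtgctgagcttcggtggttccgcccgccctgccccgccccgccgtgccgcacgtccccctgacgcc
Psmb10: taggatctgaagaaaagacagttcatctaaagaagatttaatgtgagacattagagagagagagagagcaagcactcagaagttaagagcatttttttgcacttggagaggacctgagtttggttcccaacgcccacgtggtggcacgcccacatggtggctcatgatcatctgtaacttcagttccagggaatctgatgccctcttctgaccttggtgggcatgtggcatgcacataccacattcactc
The capitals in Psmd12 are a match to TGACNNNGC, the core of the element bound by Nfe2l1 and its relatives, read on the opposite strand, and those in Psma7 are the CCAAT box. Psmb10 had no match to either. Of the 36 genes, 31 matched a promoter in the table (Psmb1, Psmb2, Psmb7, Psmc3 and Psmd7 did not). TGACNNNGC was present in 5 of these 31 (16.1%: Psmb5, Psmb6, Psmc6, Psmd9 and Psmd12) and in 10.1% of 27025 promoters of the same length. CCAAT was present in 12 (38.7%) against 34.5% of all. None of the sequences shown carried both motifs. A match says only that these letters are in the window.

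Psmd12 read differently against the complex in each comparison. At E12.5 one of its probes was lower in heterozygotes and lower still in homozygotes, while its second probe was level. Of the 42 probes of other subunits, 0 passed the adjusted test in homozygotes or heterozygotes against wild types. Over all probes, 0.0488% and 0% passed. In homozygotes 31 of the 42 had values below 0, with a median of -0.10, beside 0.00 over all probes. Between litters both probes varied in the same order as Psmd11 and Psmd14 of the lid and as some subunits outside it. Between stages the probe that was level across genotypes had lower values in adults, as most subunits did, and the other did not.

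Psmd12 gave discordant readings at E12.5: one probe was lower in homozygotes and the other was level across genotypes. Both probes, ILMN_1216211 and ILMN_2896805, are annotated to the same transcript and were detected on all 16 embryonic and 7 adult arrays. On ILMN_1216211, the log2 intensity was 5.41, 5.43, 6.26, 6.81 and 6.90 in homozygotes. In heterozygotes it was 5.76 at the lowest, 6.34 at the median and 7.77 at the highest. In wild types it was 6.29, 6.38, 6.60, 7.32 and 8.01. The groups overlapped, with the 2 lowest homozygotes in litters 509 and 542 and the 2 highest wild types both in litter 551. With sex and litter in the fit, homozygotes were lower than wild types by -0.85 ± 0.15 log2 (0.556 of the wild-type level), heterozygotes differed from wild types by -0.51 ± 0.14, and homozygotes from heterozygotes by -0.33 ± 0.13 (SE).

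Within litters, the same probe was lower in homozygotes than in wild types by -0.88 in litter 509, -1.06 in litter 542 and -0.86 in litter 551. Each of these litters holds 1 homozygote. As the probe was picked from this contrast, the shared direction is a description. In litter 549, where homozygotes can only be set against heterozygotes, the difference was 0.05. The 1 heterozygote of litter 551 stood 0.10 above the mean of its wild types, whereas those of litters 509 and 542 stood below theirs by -0.50 and -0.52.

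ILMN_2896805 showed none of this. Its log2 intensity was 10.80, 10.89, 11.13, 11.31 and 11.52 in homozygotes. It was 10.80 at the lowest, 11.10 at the median and 11.40 at the highest in heterozygotes, and 10.86, 11.03, 11.09, 11.39 and 11.62 in wild types. The 3 groups covered nearly the same range. The fitted differences were -0.01 ± 0.11 for homozygotes against wild types, -0.01 ± 0.10 for heterozygotes against wild types and 0.01 ± 0.10 for homozygotes against heterozygotes (SE), and within litters 509, 542 and 551 homozygotes differed from wild types by -0.06, 0.07 and 0.02. Before normalization ILMN_1216211 read 163 to 457 units on the embryonic arrays, whose medians were 164 to 210, and ILMN_2896805 read 1601 to 4217.

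**Figure D1:**
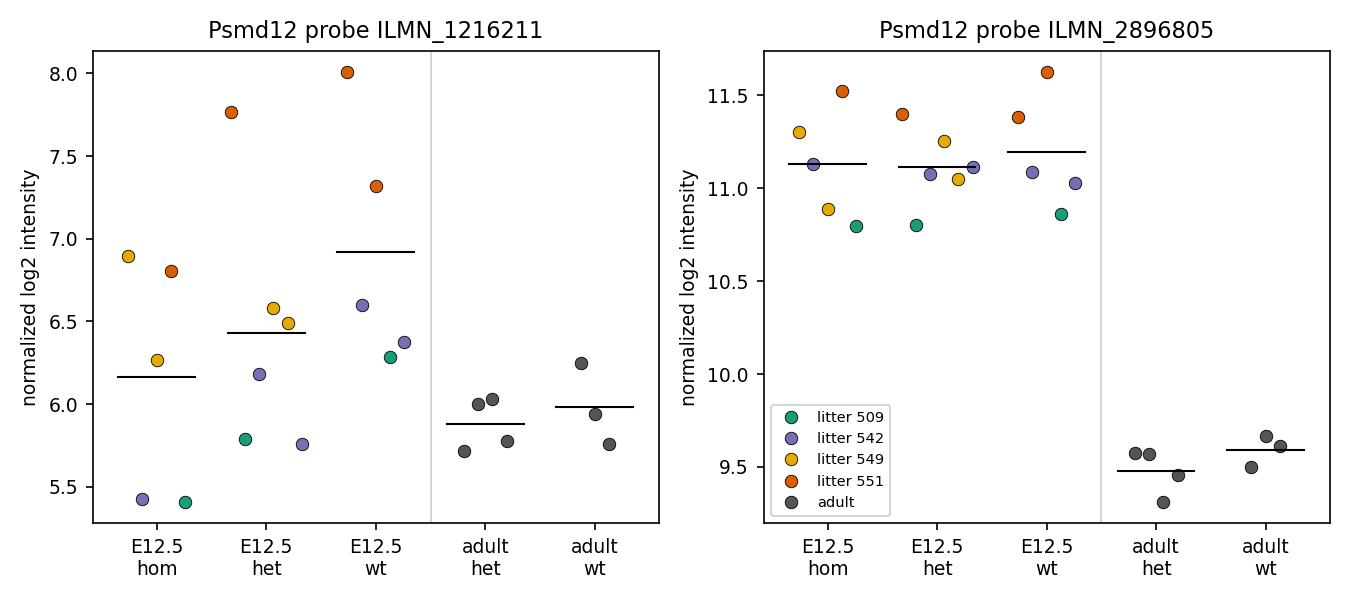
Normalized log2 intensity of the 2 Psmd12 probes on each array (points, coloured by litter at E12.5, adults in grey) with the mean of each group (lines); embryonic and adult arrays were normalized apart, so levels are compared within a stage only. On ILMN_1216211 the 2 lowest arrays are homozygotes and the highest is a wild type, while on ILMN_2896805 the genotypes overlap and litter 551 lies at the top.

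The 2 probes disagreed more than those of most genes measured more than once. Their difference between homozygotes and wild types was 0.84 log2 apart, the second largest such gap among 2670 genes with several tested probes, where the median gap was 0.15 and 1 other gene had a wider gap. As the probe was picked from this contrast, the rank is a description. Of the 11 proteasome genes with several tested probes, Psmd11 followed with a gap of 0.46 (rank 130) and Psmd9 with 0.34 (rank 391), and the gap was 0.29 or less in the other 8. Where on the transcript each probe lies was not used here.

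**Figure D2:**
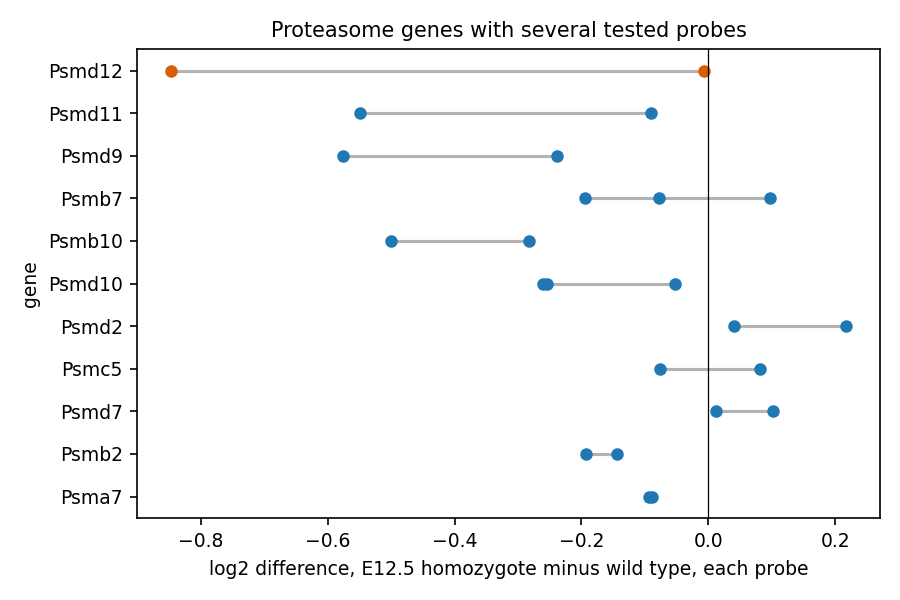
Fitted log2 difference between E12.5 homozygotes and wild types for every tested probe of the 11 proteasome genes with more than 1 (points; lines join the probes of a gene). Psmd12 (orange) spans -0.85 to -0.01, a wider span than in the other genes shown.

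The other subunits showed no called change in homozygotes. Psmd12 was left out of the counts between E12.5 genotypes, which leaves 42 probes of 30 genes. Of these 42, 0 passed an adjusted p of 0.05 between homozygotes and wild types (limma, Benjamini-Hochberg over all 14340 probes), where 0.0488% of all probes passed. At an unadjusted p under 0.05 there were 4 of 42 (9.52%), against 11.8% of all probes. All 4 had values below 0 (6.06% of all probes did at that p): Psmd9, Psmb10, Psmd11 (ILMN_1214057) and Psmd14. The median difference was -0.10 over the 42 probes and 0.00 over all probes, and 31 of the 42 had a value below 0.

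By role, the 6 alpha-ring probes had the narrowest range, between -0.09 and 0.02, with a median of -0.07. The 5 probes of structural beta subunits lay between -0.19 and 0.09, with a median of -0.14. Among the catalytic subunits, Psmb5 differed by -0.26 ± 0.15 (adjusted p = 0.49), Psmb6 by -0.20 ± 0.10 (adjusted p = 0.439) and the brightest probe of Psmb7 by 0.10 ± 0.11 (adjusted p = 0.70; SE, limma), while the 2 other Psmb7 probes had values below 0 (-0.08 and -0.19). The ATPases of the base lay between -0.17 and 0.08. Psmd1, a scaffold of the base, had the most positive value among the 31 genes when each was taken by its brightest probe, 0.22 ± 0.16 (adjusted p = 0.574).

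The lid was uneven. Psmd11, which helps clamp the lid to the core, read -0.55 ± 0.19 on ILMN_1214057 (adjusted p = 0.379) but -0.09 ± 0.11 on ILMN_2888116 (adjusted p = 0.724). Psmd14, the enzyme that removes ubiquitin from substrates at the pore, differed by -0.24 ± 0.11 (adjusted p = 0.42), whereas Psmd13 differed by 0.01 ± 0.11 and both Psmd7 probes by 0.01 and 0.10. Psmd9, a chaperone in assembly of the base, differed by -0.58 ± 0.14 (adjusted p = 0.358). Its log2 intensity on ILMN_2593662 was 6.33 at the lowest, 6.68 at the median and 7.14 at the highest in homozygotes, against 6.95, 7.14 and 7.77 in wild types, so the groups overlapped. The second Psmd9 probe gave -0.24 ± 0.15 (adjusted p = 0.508).

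**Figure D3:**
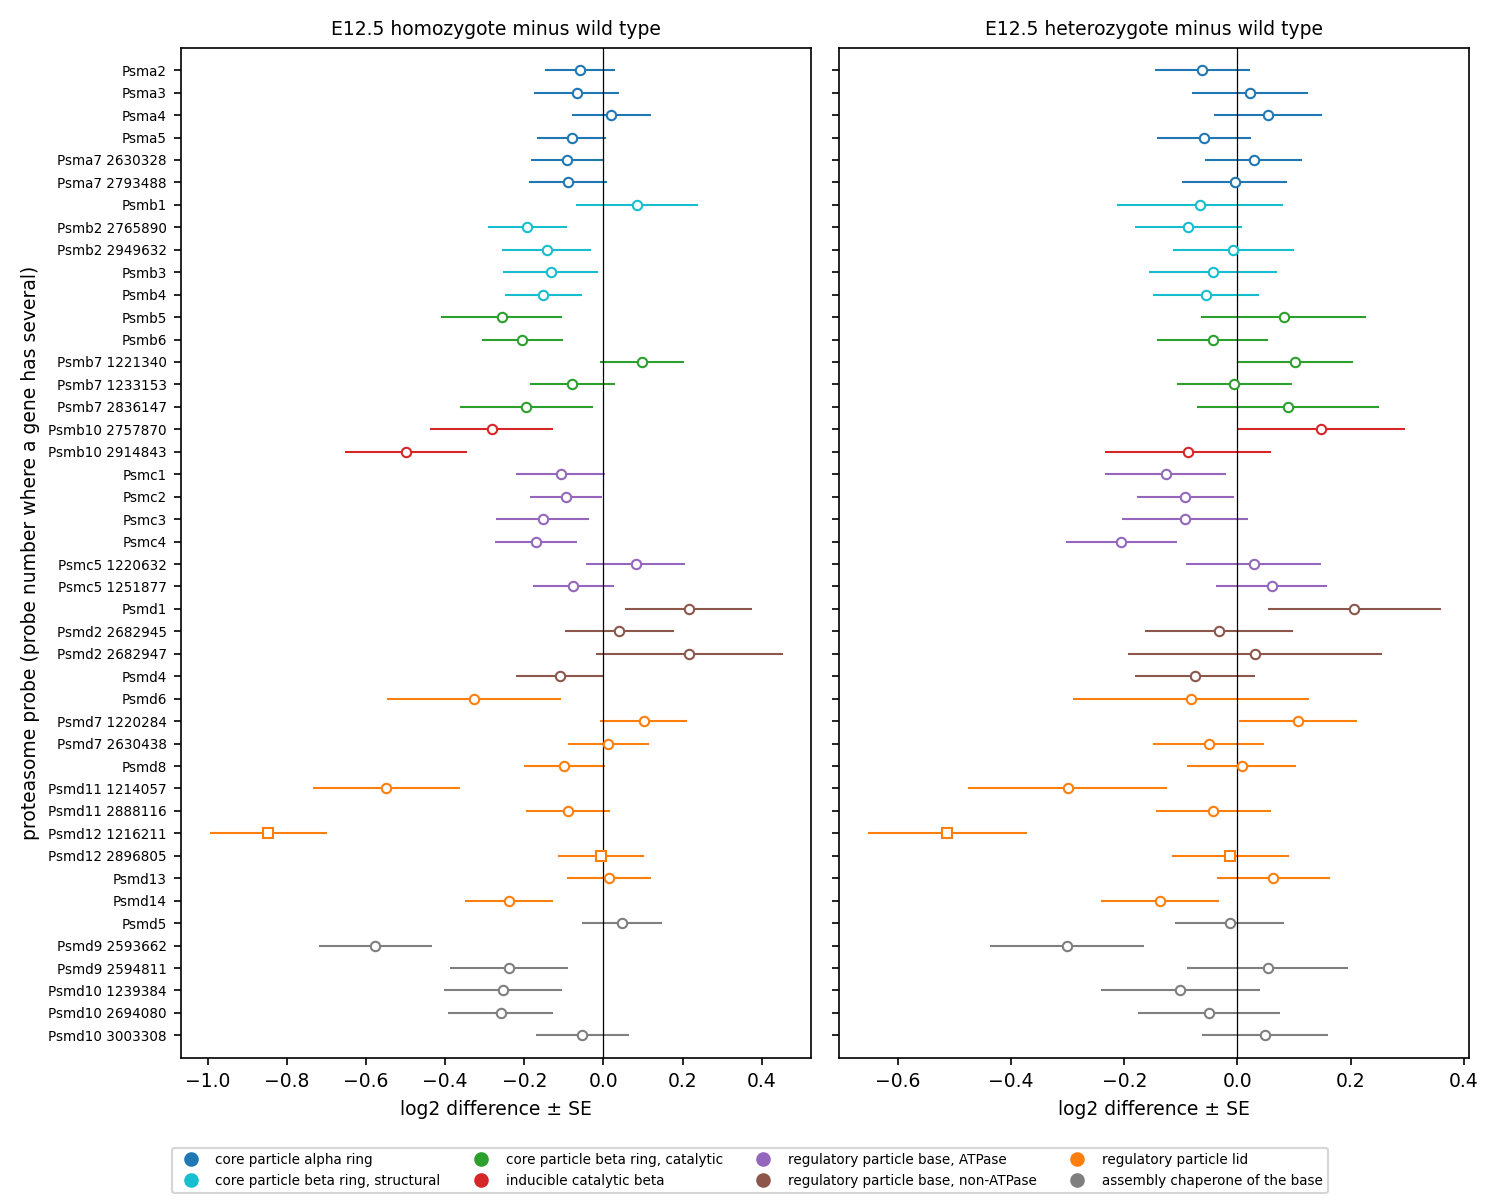
Fitted log2 difference with its standard error (horizontal bars) for the 44 tested proteasome probes at E12.5, homozygote minus wild type on the left and heterozygote minus wild type on the right, coloured by role; circles are the 42 probes of the other subunits, all open as none passed an adjusted p of 0.05, and squares are Psmd12, which was not tested here. One Psmd12 probe stands at the far left of both panels and the other at 0.

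Between heterozygotes and wild types 0 of the 42 probes and 0% of all probes were called. At an unadjusted p under 0.05 there was 1 of 42 (Psmd9, with a value below 0), or 2.38%, against 3.31% of all probes in either direction and 1.95% lower, and the median over the 42 was -0.04. Psmd9 differed by -0.30 ± 0.14 (adjusted p = 1) and Psmc4, an ATPase of the base, by -0.21 ± 0.10 (adjusted p = 1), while Psmd1 stood at 0.21 ± 0.15 (adjusted p = 1; SE, limma). The 3 main catalytic subunits lay between -0.04 and 0.10 on their brightest probes. Both comparisons use the same wild types, so values that lie on the same side in both are not independent.

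Between homozygotes and heterozygotes 0 of the 42 probes were called, where 0.0697% of all probes were. Taking the p without adjustment, 5 probes of 3 genes were under 0.05, all with values below 0 (11.9%, against 8.3% of all in either direction and 5.13% lower). Psmb10, the inducible counterpart of Psmb7, had both of its probes among them. On ILMN_2914843 its log2 intensity was 7.45, 7.71, 8.09, 8.21 and 8.28 in homozygotes, against 8.04 at the lowest, 8.33 at the median and 8.82 at the highest in heterozygotes, and the groups overlapped. The difference was -0.41 ± 0.14 (adjusted p = 0.599) on that probe and -0.43 ± 0.14 (adjusted p = 0.599) on ILMN_2757870. Psmb5 differed by -0.34 ± 0.14 (adjusted p = 0.599; SE, limma). Psmb8 and Psmb9, the other inducible subunits, were detected on 2 of 16 embryonic arrays each and were not tested at E12.5.

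Markers of macrophages and microglia, which express immunoproteasome subunits, moved the same way as Psmb10. Their 7 genes summed to 760 to 1120 units in homozygotes, 1215 to 1401 in heterozygotes and 1057 to 1359 in wild types, and 6 of 7 had a value below 0 between homozygotes and heterozygotes, from -0.54 (Fcer1g and Tyrobp) to 0.10 (Cx3cr1), with 0 of 7 called. Their part in the Psmb10 difference was not tested. Blood cell markers also differed by genotype: of 9 genes, 4 were called lower in homozygotes than in heterozygotes and 3 lower than in wild types. These are platelet genes (Ppbp, Treml1 and Gp9 in both, and Pf4 against heterozygotes), and those called in both comparisons were above background in 1 of 5 homozygotes apiece, against all 6 heterozygotes and all 5 wild types. The embryonic globins Hba-x and Hbb-bh1 differed by 0.09 and 0.16 between homozygotes and wild types (adjusted p = 0.678 and 0.758, limma). Their mean log2 intensity was 14.61 and 14.05 in homozygotes, against 14.60 and 14.22 in heterozygotes. The 9 genes together, most of whose signal is globin, summed to 36580 to 55190 units in homozygotes, 45700 to 61350 in heterozygotes and 37130 to 53000 in wild types. The part of blood cell RNA in the Psmd12 and Psmb10 differences was not tested.

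Genes that work with the proteasome gave no called difference either. In homozygotes against wild types 0 of 19 tested partner genes passed, with a median of -0.02 and values from -0.46 (Sem1, a small further subunit of the lid) to 0.40 (Rad23b, which delivers ubiquitinated proteins), beside a median of -0.00 over all 9731 genes. Without adjustment, 8 of the 19 had a p under 0.05: Psme3 and Rad23b above 0, and Sem1, Psme2, Uchl5, Psmg1, Psmg2 and Psmg3 below it. Over all probes, rather than genes by their brightest probe, 11.8% were under 0.05 in either direction and 6.06% in the lower direction. The core assembly chaperones Psmg1, Psmg2, Psmg3 and Pomp lay at -0.22, -0.24, -0.27 and -0.13. Nfe2l1 lay at -0.02. The COP9 signalosome, a complex whose architecture resembles that of the lid, had 0 of 9 genes called and a median of 0.02, from -0.23 (Cops5) to 0.13 (Cops2). Of the antigen presentation and interferon genes, 0 of 6 were called, with Isg15, a ubiquitin-like protein, at -0.55 ± 0.25 (adjusted p = 0.418).

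Psmd12 and Meis1 are both annotated on chromosome 11. Of the 5 genes next to Psmd12 on each side, 7 were tested at E12.5 (Kpna2, Nol11, Pitpnc1, Helz, Cacng4, Cacng5 and Prkca) and none was called between homozygotes and wild types. Their values ran from -0.18 (Prkca, a protein kinase C) to 0.42 (Cacng4, an AMPA receptor auxiliary subunit; adjusted p = 0.384), with 5 of the 7 above 0. The neighbours are not ranked against Psmd12, as its value on ILMN_1216211 was picked from this contrast.

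More probes were called between litters than between genotypes, among the proteasome probes as among all probes. Of 44 probes, 19 (43.2%) differed between litters at an adjusted p of 0.05 (limma, F test with genotype and sex in the fit), against 34.1% of all probes, and they represent 15 of the 31 genes. The counts between litters include both Psmd12 probes, although Psmd12 was chosen from E12.5 values. The spread was unequal by role: 9 of the 10 lid probes were called, but 1 of 6 alpha-ring probes, 0 of 5 of the structural beta subunits and 1 of 5 of the catalytic ones. Among the 19, litter 551 was highest for 16 (84.2%) and lowest for 3 (15.8%), against 39.4% and 38.8% of all called probes. The order with 551 highest and 509 lowest held for 11 of the 19 (57.9%) and for 25.7% of all called probes. The range over litters had a median of 0.67 log2 in the 19 and 0.69 in all called probes.

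Both Psmd12 probes shared this order. ILMN_1216211 averaged 5.83 ± 0.44 in litter 509 (SD, n = 3), 6.07 ± 0.47 in 542 (n = 5), 6.56 ± 0.26 in 549 (n = 4) and 7.47 ± 0.53 in 551 (n = 4), a fitted range of 1.47. ILMN_2896805 averaged 10.82 ± 0.04, 11.09 ± 0.04, 11.12 ± 0.19 and 11.48 ± 0.11 in the same litters, a fitted range of 0.66. On the second probe the arrays of 509 (10.80 to 10.86) and those of 551 (11.39 to 11.62) did not overlap. The 2 probes thus had the same order of litter means, although litters 542 and 549 lay close on ILMN_2896805 (11.09 and 11.12). Without litter 551 the range of ILMN_2896805 was 0.32. These arrays are those Psmd12 was chosen from, so no test is given for it.

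Of the other lid subunits, Psmd11 and Psmd14 had the full order of Psmd12, whereas Psmd6, Psmd7, Psmd8 and Psmd13 did not. Outside the lid, called probes of Psmc1, Psmc2, Psmd9, Psmd10 and Psmb7 had it too. Psmd11 was lowest in litter 509, then 542, 549 and 551, with means of 8.82, 9.12, 9.58 and 10.03 on ILMN_2888116 (range 1.23, adjusted p = 2.94e-05, limma). Its other probe, ILMN_1214057, was detected on 0 of 3 arrays of litter 509 and 4 of 4 of litter 551, which stood at least 3.1-fold higher. Psmd14 had means of 9.13, 9.45, 9.58 and 10.32 in the same order (range 1.13, adjusted p = 7.75e-05). Psmd6, another lid subunit, was highest in 551 and lowest in 542 (range 1.29, adjusted p = 0.00114). Psmd2, a base scaffold that binds ubiquitin shuttle factors, ran the other way: on ILMN_2682945 litter 551 averaged 6.85, against 8.20, 8.13 and 8.45 in litters 509, 542 and 549 (range 1.59, adjusted p = 2.61e-05). The highest array of 551 there, 7.06, lay below the lowest of the other litters, 7.98. Without litter 551 the Psmd2 range was 0.32 (adjusted p = 0.28), while Psmd11, Psmd14 and Psmd6 were still called with ranges of 0.76, 0.57 and 0.79. With no background correction the ranges of Psmd12 on ILMN_1216211, Psmd2 and Psmd6 were 0.65, 0.95 and 0.65, and Psmd2 and Psmd6 were still called.

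The remaining subunits called on their brightest probe had ranges under 1 log2. The base ATPases Psmc1, Psmc2 and Psmc4 ranged over 0.82, 0.33 and 0.35 (adjusted p = 0.00145, 0.0348 and 0.041), the base chaperone Psmd9 over 0.80 (adjusted p = 0.00388), the lid subunits Psmd7 and Psmd8 over 0.55 and 0.34 (adjusted p = 0.0024 and 0.034), and Psma3 of the alpha ring over 0.38 (adjusted p = 0.0376, limma). Without litter 551, Psmc1, Psmd7 and Psma3 ranged over 0.52, 0.36 and 0.20 and were not called (adjusted p = 0.0555, 0.085 and 0.34).

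Array brightness also differed by litter. Mean raw signal was 561 to 645 in 509 and 562 to 593 in 542, but 696 to 756 in 549 and 682 to 906 in 551, before normalization. Its part in the litter differences was not tested, and litter cannot be told apart from the handling of a litter's samples. The count rested on the extreme litters: without litter 551 it was 5 of 44 probes (9.34% of all probes), and without litter 509 it was 12 (24%). Of the partner genes 5 of 19 were called, namely Usp14, Uchl5, Psme3, Vcp and Nfe2l1, and of the COP9 genes 2 of 9 (Cops5 and Cops8), against 32.3% of all genes.

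**Figure D4:**
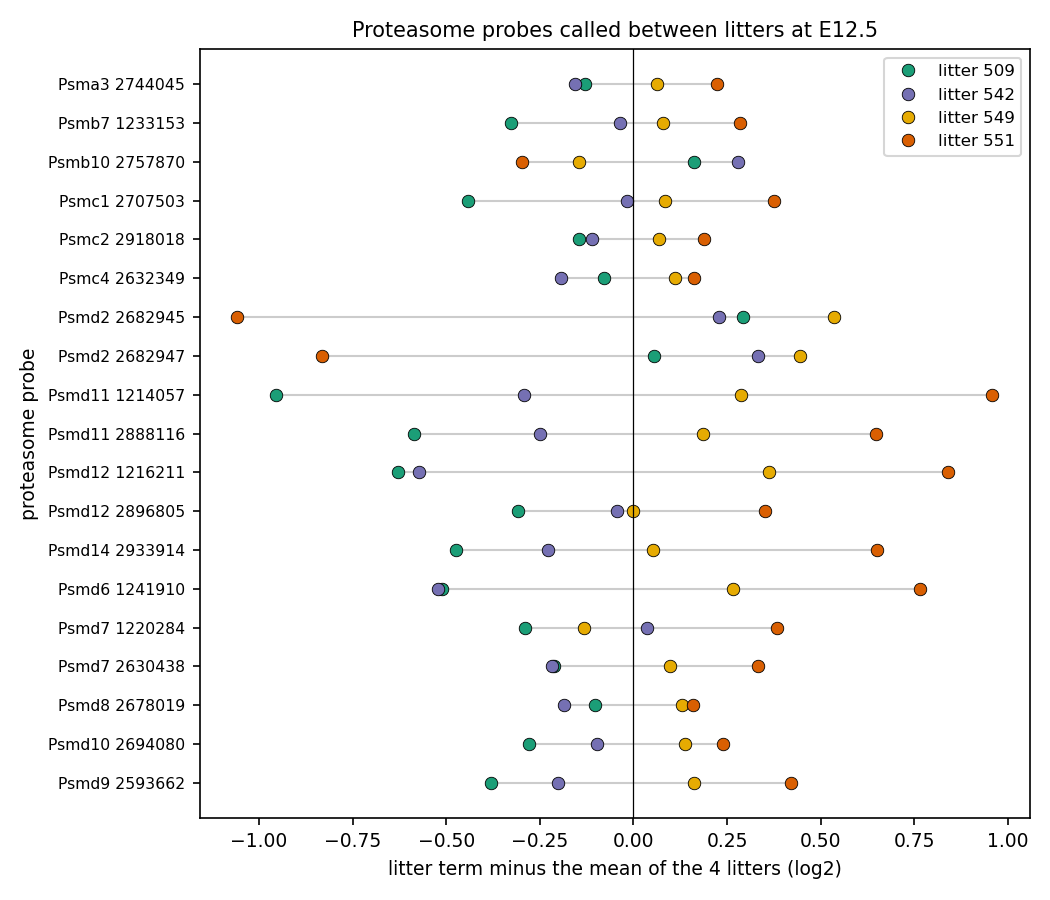
Litter terms of the 19 proteasome probes called between litters at E12.5, each shown as its deviation from the mean of the 4 litters on the log2 scale (points coloured by litter, grey lines span the range), grouped by role. Litter 551 lies at the right in 16 of them, and at the left for both Psmd2 probes and 1 Psmb10 probe. The calls of the Psmd12 probes are not read, as Psmd12 was chosen from E12.5 values.

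Between females and males 0 of 44 probes were called, where 0.0697% of all probes were. At an unadjusted p under 0.05 there were 3 (6.82%, against 4.44% of all in either direction and 2.53% higher), all higher in females. These counts include Psmd12, although it was chosen from E12.5 values. Psmd6 differed by 0.61 ± 0.17 (adjusted p = 0.794), with 6.28 at the lowest, 6.68 at the median and 8.49 at the highest in females, against 5.53, 6.69 and 7.06 in males, and the ranges overlapped. Psmd12, given without a test, differed by 0.39 ± 0.11 on ILMN_1216211 and by 0.01 ± 0.08 on ILMN_2896805, so the probes parted here too. Psmd14 differed by 0.20 ± 0.09, while Psmd1 and Psmd11 had the most negative values, -0.25 and -0.17 (adjusted p = 0.997 for all 3; SE, limma).

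In adult brain no proteasome probe passed the test between heterozygotes and wild types: 0 of 46 were called, and 0% of all probes. Psmd12 on ILMN_1216211 read 5.72, 5.78, 6.00 and 6.03 in heterozygotes, against 5.76, 5.94 and 6.25 in wild types. On ILMN_2896805 it read 9.31, 9.45, 9.57 and 9.58 in heterozygotes, against 9.50, 9.61 and 9.66 in wild types. The groups overlapped on both probes, with differences of -0.10 ± 0.13 (adjusted p = 0.781) and -0.11 ± 0.10 (adjusted p = 0.67; SE, limma).

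At an unadjusted p under 0.05 there were 5 of 46 adult probes (10.9%, against 10.7% of all): 2 higher (5.03% of all) and 3 lower (5.66% of all). Psmb10 was higher on both probes, by 0.24 ± 0.11 (adjusted p = 0.459) and 0.22 ± 0.10 (adjusted p = 0.465). Psmb7 was lower on its brightest probe by -0.31 ± 0.11 (adjusted p = 0.414), with 10.65 to 10.86 in heterozygotes and 10.89 to 11.26 in wild types, so that the groups did not overlap there, although the other 2 Psmb7 probes overlapped. The groups were likewise apart on Psma3 ILMN_2744045, Psmb6 and Psmd10 ILMN_1239384, and the share of all probes where they were apart was not counted. Psmd10, a chaperone of the base, gave -0.30 ± 0.10 on 1 of 3 probes and Psmd6 gave -0.26 ± 0.11. Psmd13 stood at 0.22 ± 0.10 (adjusted p = 0.465), Psmb5 at 0.06 ± 0.10, Psmb6 at 0.16 ± 0.09, Psmb8 at 0.11 ± 0.11 and Psmb9 at 0.06 ± 0.13 (SE, limma). The median over the 46 probes was -0.02. Partner genes, COP9 genes and antigen presentation genes had 0 of 19, 0 of 9 and 0 of 8 called.

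Set against E12.5 forebrain, adult brain held lower signal for most of the complex and higher signal for the inducible subunit Psmb10. This comparison used the 7 adult males and the 6 male wild types and heterozygotes at E12.5, normalized together, with genotype in the fit. Of 46 proteasome probes, 38 (82.6%) were called, against 78.8% of all probes. Of these, 35 were lower in adults (76.1% of the 46, against 42.4% of all) and 3 higher (6.52%, against 36.4%). The median difference was -0.56 over the proteasome probes and -0.09 over all. These counts include both Psmd12 probes, although Psmd12 was chosen from E12.5 values. Psmb8 and Psmb9 were each detected on 1 of the 6 E12.5 arrays and were tested only because adults passed the filter. Over the 44 probes detected on at least 3 arrays of each stage, 35 were lower and 2 higher, both of Psmb10, against 43.9% and 34% of all 12472 such probes. By gene, taking the brightest probe, 26 of 33 were lower. Stage, brain region and the set of arrays cannot be told apart in this comparison.

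All 6 alpha-ring probes were lower in adults. Psma7 on ILMN_2630328 had 10.21 at the lowest, 10.29 at the median and 10.41 at the highest in adults, against 11.65, 11.72 and 11.83 at E12.5, so the stages did not overlap. The difference was -1.44 ± 0.07 (0.369 of the E12.5 level, adjusted p = 1.40e-11), and Psma4 differed by -1.40 ± 0.11 (adjusted p = 2.10e-09). Among the beta subunits Psmb3 fell by 1.22 and Psmb2 by 1.05, whereas Psmb1 stood at -0.04 ± 0.10 (adjusted p = 0.721). All 5 probes of the main catalytic subunits were lower: Psmb6 by -0.96 ± 0.08 (adjusted p = 6.59e-09), Psmb7 by -0.87 ± 0.11 (adjusted p = 1.09e-06) and Psmb5 by -0.41 ± 0.13 (adjusted p = 0.00862; SE, limma).

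Of the inducible subunits, Psmb10 went the opposite way. Psmb10 on ILMN_2914843 had 9.39 at the lowest, 9.65 at the median and 9.88 at the highest in adults, against 7.61, 7.77 and 8.19 at E12.5. The stages were well apart, and the difference was 1.83 ± 0.09 (3.55-fold, adjusted p = 9.08e-12), with 2.04 ± 0.11 on the second probe (SE, limma). Psmb9 had 5.43 at the lowest, 5.70 at the median and 5.96 at the highest in adults, against 4.68, 4.94 and 5.32 at E12.5, but it was detected on 7 of 7 adult arrays and 1 of 6 at E12.5, so no difference is given. Psmb8 was detected on 5 of 7 adult arrays and 1 of 6 at E12.5. Macrophage and microglia markers were higher in adults as well, in 7 of 7 genes, with sums of 1695 to 2001 units in adults and 813 to 925 at E12.5, and their part in the Psmb10 difference was not tested.

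Of the antigen presentation and interferon genes, 6 were detected on at least 3 arrays of each stage, and of these 3 were higher in adults and 1 lower: Ifit3 by 2.83, B2m, the light chain of class I molecules, by 0.91 and Irf1 by 0.58, with Irf9 at -0.55. The adjusted p was 5.23e-05 or less for each of these 4 (limma). Tap2, which pumps peptides into the endoplasmic reticulum, was detected on 7 of 7 adult and 1 of 6 E12.5 arrays, and Irf8 on 3 of 7 and 0 of 6. The regulatory particle was mostly lower. The base scaffold Psmd2 differed by -1.40 ± 0.23 (adjusted p = 3.01e-05) on ILMN_2682945 and by -1.32 on ILMN_2682947, or by -0.72 and -0.46 with no background correction, both still called, and the base chaperone Psmd5 by -1.58 ± 0.13, the most negative value of the 46 (adjusted p = 4.04e-09; SE, limma). Of the ATPases, 4 of 6 probes were lower, and the 2 Psmc5 probes stood at -0.06 and 0.17 and were not called. In the lid 6 of 10 probes were lower, among them Psmd13 at -1.02 ± 0.09, while Psmd14 stood at -0.00 ± 0.15 and Psmd6 at 0.04 ± 0.18.

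Psmd12 again depended on the probe. On ILMN_2896805 it had 9.88 at the lowest, 10.14 at the median and 10.23 at the highest in adults, against 10.19, 10.42 and 10.99 at E12.5. The ranges met at their edges, and the difference was -0.40 ± 0.11 (SE). On ILMN_1216211 it had 6.08, 6.34 and 6.68 in adults, against 5.44, 6.01 and 6.80 at E12.5, with overlap, and the difference was 0.28 ± 0.16 (SE). Without the E12.5 wild-type male of litter 551 that value was 0.41. The E12.5 arrays here are among those Psmd12 was chosen from, so no test is given for it. The first probe lay with the majority of the complex and the second did not. Psmd11 parted in the same manner, with -0.80 ± 0.16 (adjusted p = 0.000168) on ILMN_2888116 and 0.04 ± 0.25 (adjusted p = 0.888; SE, limma) on ILMN_1214057. The latter probe was dim, with means of 5.63 in adults and 5.60 at E12.5, and was detected on 5 of 6 E12.5 arrays, so a decrease could hardly show there.

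The sizes depended on the scaling. With arrays scaled to equal medians in place of quantiles, the median of all probes shifted to -0.41 and 39 of the 46 proteasome probes were called lower and 4 higher, beside 8528 lower and 4250 higher of all probes (6695 and 5734 with quantiles). With no background correction, 35 were called lower and 4 higher. Relative to the median of all probes, the proteasome median was -0.78 with equal medians, -0.40 with no background correction and -0.47 as reported. On the same relative scale the lower of the 2 Psmb10 probes stood at 1.60, 1.46 and 1.92, Psmd12 on ILMN_2896805 at -0.69, -0.33 and -0.31, and Psmd12 on ILMN_1216211 at 0.41, 0.14 and 0.37. Before this subtraction Psmd12 on ILMN_1216211 was -0.00 with equal medians and 0.10 with no background correction.

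Of the 19 partner genes, 12 were lower and 4 higher in adults, with a median of -0.65, where 40.8% of all genes were lower and 38.2% higher. The proteasome activators Psme4 and Psme2 fell by 1.70 and 1.69 log2, and the core chaperones Psmg3 and Psmg1 stood at -1.42 and -1.34. Nfe2l1 was higher by 1.69 ± 0.11 (adjusted p = 5.18e-10, limma), as were Usp14, Ubqln1 and Ube3c by 0.80, 0.78 and 0.75. In the COP9 signalosome 6 of 9 genes were lower and 1 higher, from -1.61 (Cops7b) to 0.71 (Cops7a), where 79.0% of all genes were called in either direction. Cell type markers changed as well: of the markers detected on at least 3 arrays of each stage, all 5 progenitor genes were lower in adults, all 3 adult brain genes higher and all 6 blood genes lower, and their part in the proteasome differences was not tested.

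**Figure D5:**
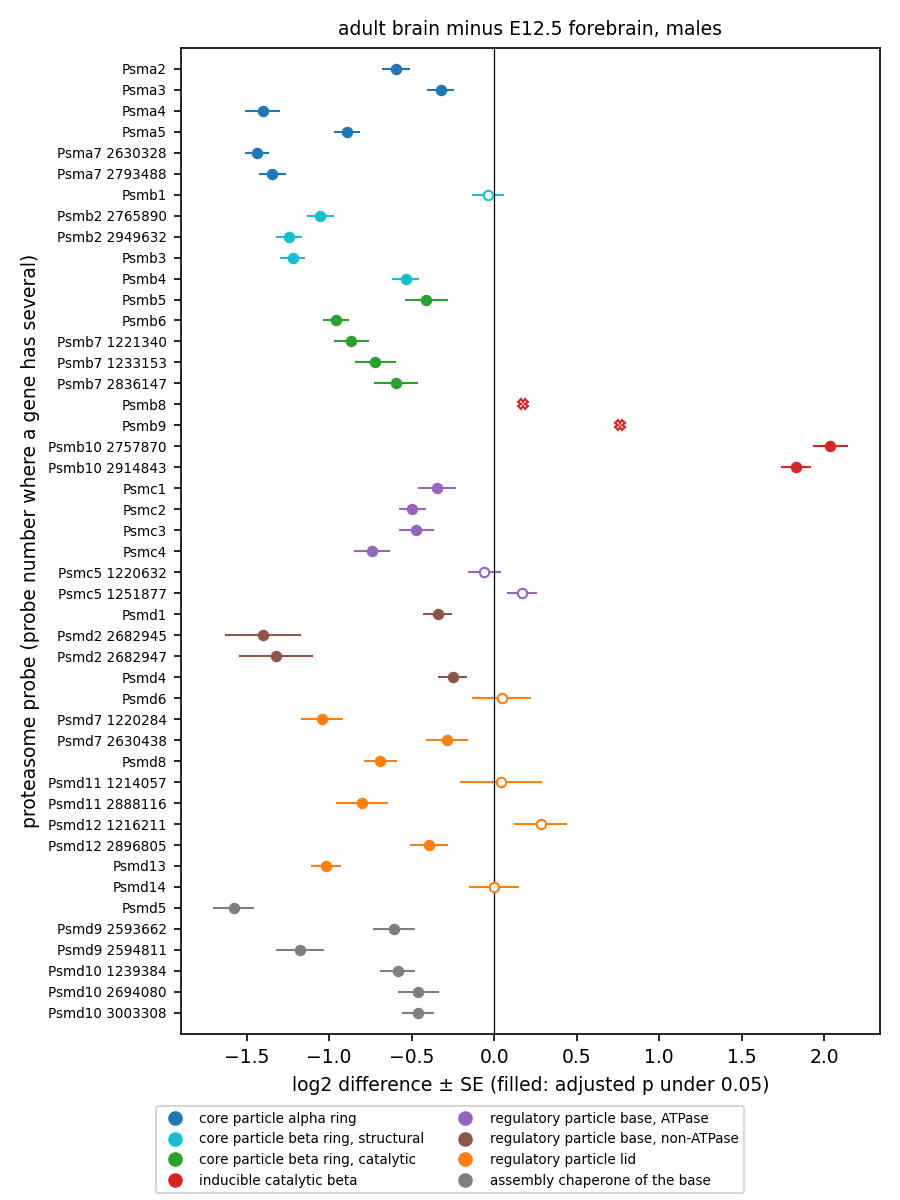
Fitted log2 difference, adult brain minus E12.5 forebrain, with its standard error (horizontal bars) for the 46 tested proteasome probes in males, coloured by role; filled points passed an adjusted p of 0.05, and crosses without bars are Psmb8 and Psmb9, each detected on 1 of 6 E12.5 arrays. Most probes lie left of 0, both Psmb10 probes lie far right of it, and the 2 Psmd12 probes fall on either side. The fill of the Psmd12 points is not read, as Psmd12 was chosen from E12.5 values.

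Whether the heterozygote effect differed between the stages was tested on the same 13 arrays. Of the 44 probes of genes other than Psmd12, 0 were called, and 0% of all probes. Psmd2 had the only unadjusted p under 0.05 among the 44 (2.27%, against 7.32% of all in either direction and 2.94% below 0), with -0.90 ± 0.42 (adjusted p = 0.68). Litter was not in this fit, and litter 551 gave a wild type but no heterozygote among these males. On Psmd2 ILMN_2682945 that wild type read 6.16, against 7.80 and 7.51 in the other E12.5 wild types and 7.62 to 7.99 in the heterozygotes. Psmb5 stood at -0.40 ± 0.25, Psmb1 at 0.32 ± 0.18 and Psmd13 at 0.24 ± 0.17. The 2 Psmd12 probes gave 0.22 ± 0.33 and -0.09 ± 0.24 (SE), without a test, as the E12.5 heterozygotes and wild types are among the values Psmd12 was chosen from.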

How the data were processed

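Total RNA of 23 mice was hybridised to Illumina bead arrays, read with GenomeStudio 2011.1, per the submitters' processing notes. Per the file headers, the deposited raw table gives, per probe and array, an intensity and a detection p-value. A second deposited table holds the authors' processed intensity, scaled in a way the sources used here do not give (column medians 31.1 to 31.3 at E12.5 and 16.2 to 16.3 in adults), and was used as an alternative only.

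From the raw table, background was corrected with the normal-exponential model of limma 3.58.1 (R 4.3.3), using the detection p-values (offset 16), and arrays were then quantile normalized in log2 units, separately for E12.5 and adults and together for the comparison of stages. Tests covered 14340 probes at E12.5, 14266 in adults and 15773 in the joint set, those detected (p under 0.05) on 5, 3 and 3 arrays or more. Models in limma (lmFit and eBayes) had genotype, sex and litter as terms at E12.5, genotype in adults, and stage and genotype in males. Adjusted p-values are Benjamini-Hochberg over all probes tested, and calls use 0.05. In gene lists the brightest probe stands for a gene. The fits were tested on simulated data. The p-values measure only the spread between these samples.

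The proteasome genes, the lists and the tests were chosen with earlier results of these data known. Named genes are Psmd12, the catalytic subunits, members called (the 10 largest each way if over 20), the 2 most positive and negative genes of each comparison, and, in other lists, the called genes and the extremes. Other values named, among them members at an unadjusted p under 0.05, were chosen after they were seen. Slides are not named in the headers, so slide was not used as a block. Alternatives were other background correction and scaling, no probe filter, other litter terms, males alone, a replicate block, each array left out and, chosen after seeing the data, each of 3 litters left out and a filter on detection in each stage.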

Additional observations from a re-analysis of the deposited data

Results flagged for a closer look

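Within genotypes, 74 groups of 4 to 6 values of the named genes were checked for an array far from the rest, and 4 were found, where chance gives about 1 in 20. Psmd2 on ILMN_2682947 read 5.18 on the E12.5 wild-type male numbered 1 of litter 551, against 6.68 to 7.08 on the other 4 wild types. Psmd2 on ILMN_2682945 read 6.70 on the heterozygous female numbered 1, the one heterozygote of litter 551, against 8.01 to 8.61 on the other heterozygotes. Psmd9 on ILMN_2594811 read 7.60 on the heterozygous male numbered 1 of litter 549, against 6.88 to 7.06 on the others. In adults, Psmb7 on ILMN_1221340 read 10.65 on the heterozygote numbered 3, against 10.84 to 10.86 on the other 3.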

How the results depend on the processing

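The counts of called proteasome probes were within 1.5 times of those reported under every alternative run, except as follows. Between litters the count of 19 was 8 with the replicate block (9.54% of all probes), 9 with males alone (9.05%), 5 without litter 551, 12 without litter 509 and 13 to 21 with each array left out. The litter range of Psmd12 ILMN_2896805, given without a test, ran from 0.32 to 0.92 over the alternatives. Between stages the count was 37 to 43, and 37 over probes detected on at least 3 arrays of each stage. The difference of Psmd12 ILMN_1216211 between homozygotes and wild types, given without a test, ranged from -1.10 in the authors' processed table to -0.33 with no background correction. Whether the labels' replicate numbers pair the samples could not be settled. Of the same-numbered pairs, 11 of 15 at E12.5 and 1 of 3 in adults had a correlation over 0.1. Correlations ran from -0.456 to 0.74, and some of the pairs share a litter. The replicate block moved no count other than that between litters by over 1.5 times. Low signal limits the reading of Psmd12 ILMN_1216211, Psmd11 ILMN_1214057, Psmb8 and Psmb9, and 3 to 6 arrays a genotype limit all of them.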

Other observations

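Several members could not be read. Psma1 and Psma6 of the alpha ring were detected on none of the 23 arrays, and Psmc6, an ATPase of the base, on 4 of 16 embryonic and 0 of 7 adult arrays. Further probes of Psma3, Psmb2, Psmd5, Psmd6 and Psmd11 were also below the filter at E12.5.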
